A study of Homo sapiens with 6 samples.

Results

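The genes described here encode the SR proteins, the hnRNPs and their kinases and relatives, which decide where the spliceosome cuts a transcript. They are 48 of the 23524 genes of an RNA-Seq table of Hep G2 cells, a human liver tumor line, and were taken by name. All 48 were listed once in the table under their own Entrez gene numbers. Of these, 47 averaged 0.1 FPKM or more across the 6 libraries and were tested. FPKM is the number of fragments per kilobase of transcript, scaled to a fixed number of mapped fragments per library. The 3 control and 3 EFTUD2 libraries are labeled only as Hep G2 control and Hep G2 EFTUD2 overexpression. The paper describes stable Hep G2 cells made with an EFTUD2 lentivirus and, as control, with the vector lentivirus, and selection of stable cells with puromycin. It does not state that the sequenced control cells were these vector cells. The labels do not say that the libraries of a group came from separate cultures, so the p-values measure only the spread between these libraries, which may be technical.

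EFTUD2 is the GTPase of the U5 snRNP, a core part of the spliceosome, and the members are the factors that guide that machine to its exons. SR proteins carry RNA recognition motifs and a tail of arginine and serine repeats, bind exonic enhancers and mostly favor inclusion of the exon. The CLK and SRPK kinases phosphorylate this tail and thereby set where SR proteins sit in the nucleus. The hnRNPs coat nascent RNA and often act against inclusion, whereas ESRP, RBFOX and MBNL proteins switch exons between cell types. Many of these genes control their own mRNA through a poison exon, whose inclusion sends the transcript to nonsense-mediated decay (NMD). FPKM per gene adds up all transcripts of a gene, so exon use was not measured here and only the total mRNA of each regulator is described.

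EFTUD2 mRNA was higher in each EFTUD2 library than in any control. It measured 41.1, 54.4 and 46.3 FPKM across the controls, against 106.6, 102.9 and 109.5 FPKM across the EFTUD2 libraries (log2 fold change 1.16, standard error 0.12, limma adjusted p = 0.13). Without EFTUD2 replicate 3 the log2 fold change was 1.14 and EFTUD2 passed the test (limma adjusted p = 0.031). The hepatocyte markers fixed for this purpose summed to between 9796 and 14168 FPKM in the controls and to between 12157 and 17439 FPKM in the EFTUD2 libraries. EFTUD2 replicate 3 stood apart in scale. The median over genes of its log2 ratio to the mean of the libraries was -0.20, against 0 to 0.09 in the other libraries. The spread of 1 library against the others of its group was computed only for EFTUD2 replicate 3 and control replicate 1. The difference between EFTUD2 replicate 3 and the mean of EFTUD2 replicates 1 and 2 had an SD of 0.54 on the log2 scale over all genes tested, with a median of -0.14, against an SD of 0.31 for control replicate 1 and the mean of the other two controls. For this reason results are given with and without EFTUD2 replicate 3. Reads of bulk cells cannot tell fewer cells of a kind from less RNA per cell.

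None of the 47 members passed the test between EFTUD2-overexpressing and control cells. At a limma adjusted p under 0.05 the count was 0 of 47 members, as it was 0 of 17222 genes (0%), and the smallest adjusted p of a member was 0.40. At an unadjusted p under 0.05, 1 member was lower (SRPK1, 2.13% of the members) and 0 were higher, whereas 7.9% of all genes tested were lower and 4.4% higher. Log2 fold changes of the members ran from -0.87 (SFPQ) to 0.38 (CLK1). Their median was -0.185 against -0.075 over all genes tested, with 9 members above zero and 38 below, where 37.3% of all genes were above zero. The 6401 genes averaging 10 FPKM or more, which include 45 of the members, had a median of -0.127 with 30.3% above zero. The EFTUD2 libraries all lay below the controls for 10 members (21.3%, background 19.4%) and all above them for 1 member, PCBP2 (2.13%, background 7.92%). The first share is close to that of all genes. Dividing each library by its median of ratios brings the median of all genes near zero by construction (0.01 here). This scaling moved the median of the members to -0.06, with 18 members above zero and 29 below.

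**Figure D1:**
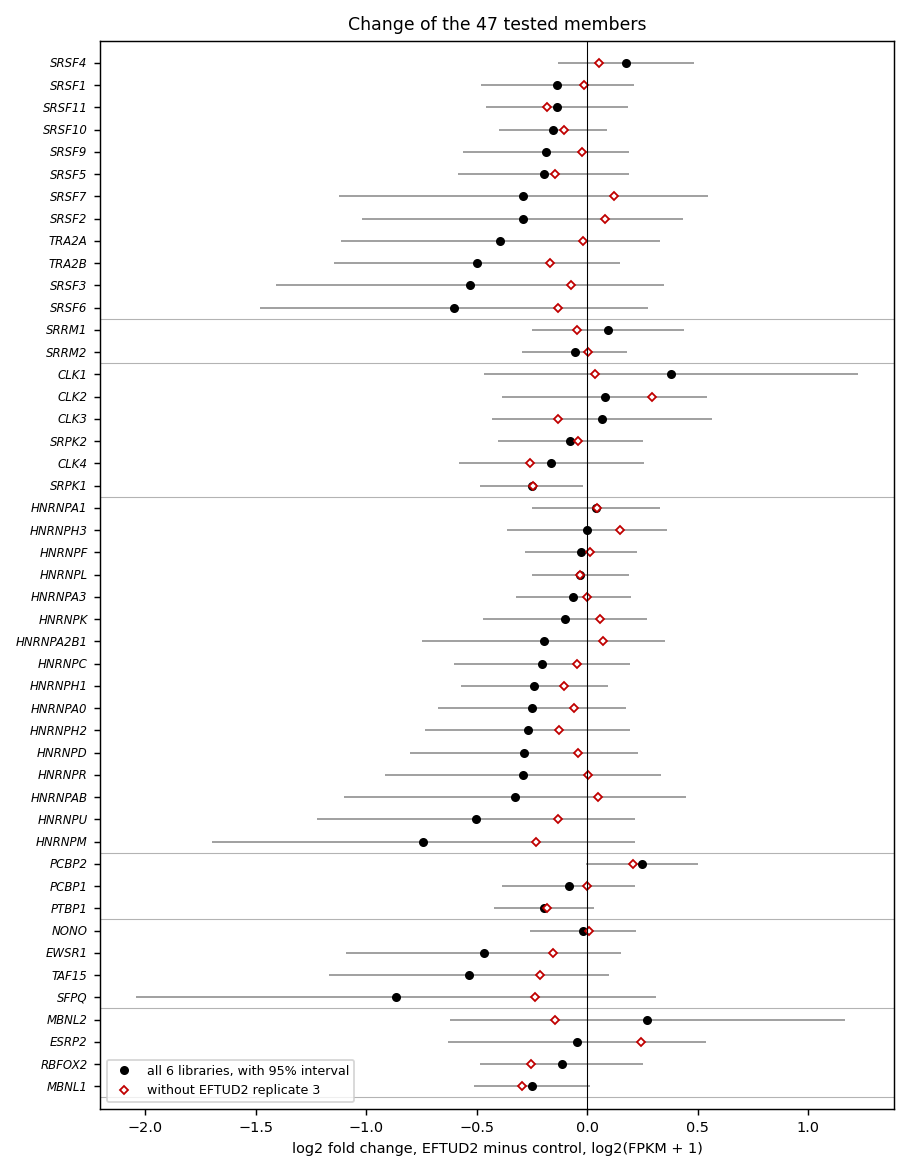
Log2 fold change of the 47 tested members (x axis, EFTUD2 minus control on the log2(FPKM + 1) scale), grouped by family between the grey lines. Black points with bars are the fit of all 6 libraries with 95% intervals, and open diamonds are the fit without EFTUD2 replicate 3, which lie between -0.30 and 0.30.

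Most of this shift lay in 1 library. EFTUD2 replicate 3 held the lowest value of the 6 libraries for 33 of the 47 members (70.2%), where 45.7% of all genes tested had their lowest value in it. Among the genes averaging 10 FPKM or more, this was so for 32 members (71.1%) and for 54.5% of the genes. It held the highest value for 7 members (14.9%), against 20.5% of all genes tested and 19.5% of those averaging 10 FPKM or more. Compared with the mean of EFTUD2 replicates 1 and 2, replicate 3 was lower by at least 1 on the log2 scale for 9 members (19.1%) and for 4.73% of all genes tested. The median difference was -0.41 over the members and -0.20 over genes averaging 10 FPKM or more. Without this library, the median log2 fold change of the members was -0.04, equal to that of all genes tested (-0.04), and 18 members were above zero and 29 below. The count of members with an adjusted p under 0.05 was again 0, with 0.761% of all genes called in that fit, and the smallest adjusted p of a member was 0.18. At an unadjusted p under 0.05, 2 members were higher (CLK2 and ESRP2, 4.26%, background 7.82%) and 3 lower (SRPK1, HNRNPM and MBNL1, 6.38%, background 8.87%). EFTUD2 replicates 1 and 2 both exceeded every control for 3 members (6.38%, background 14.7%) and both lay below every control for 12 (25.5%, background 25.2%). All members lay within 0.30 of zero in either direction in this fit.

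**Figure D2:**
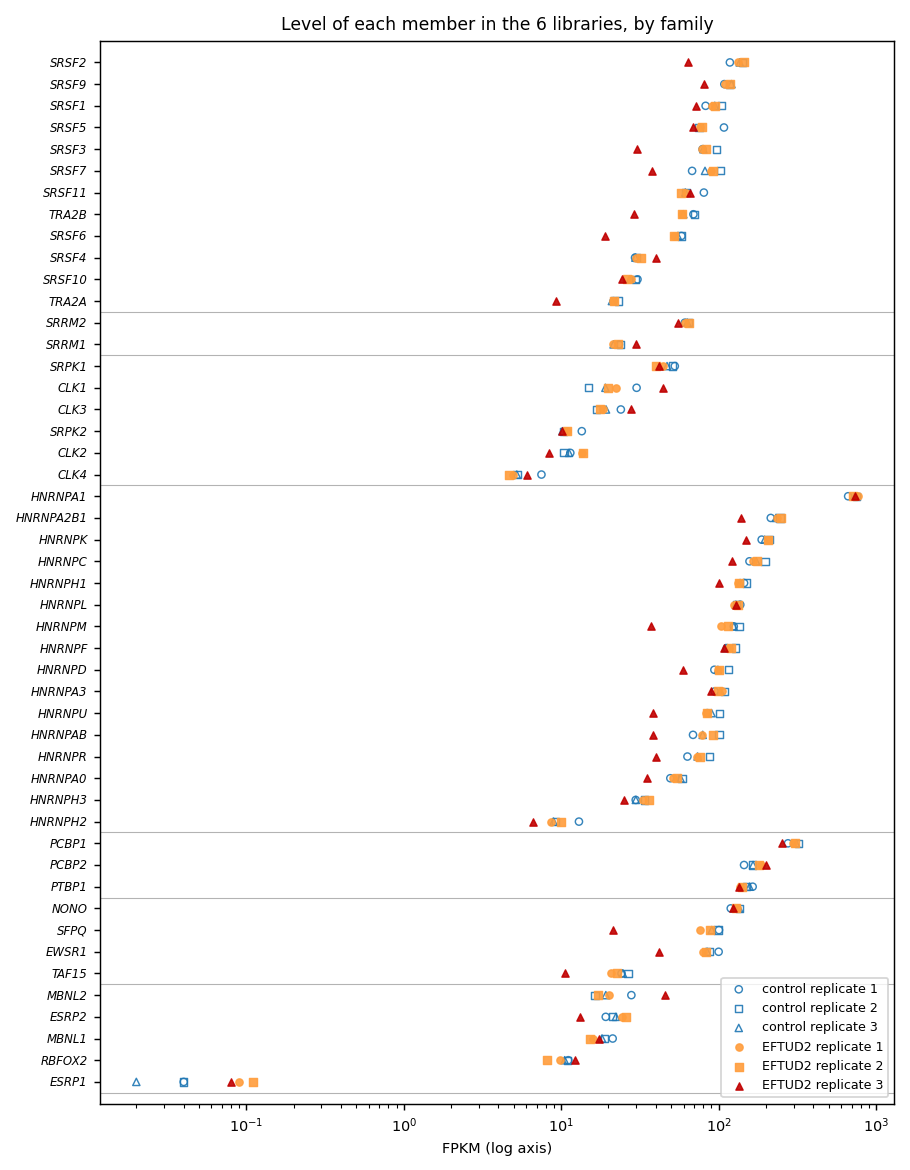
FPKM of the 48 members (x axis, log scale) in each of the 6 libraries, with families separated by grey lines and members ordered by their control mean. Blue open symbols are the controls, orange symbols EFTUD2 replicates 1 and 2, and red triangles EFTUD2 replicate 3, which lies left of the other libraries for most SR proteins and hnRNPs.

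SR proteins were abundant in Hep G2 cells, with control means from 21.9 FPKM (TRA2A) to 132.2 FPKM (SRSF2), and 11 of the 12 had a log2 fold change below zero. SRSF2, which binds exonic enhancers and has a known role in transcription elongation, had the highest level. It measured 118.1, 142.0 and 136.4 FPKM across the controls, against 133.1, 145.9 and 63.8 FPKM across EFTUD2 replicates 1 to 3 (log2 fold change -0.29, standard error 0.31, limma adjusted p = 0.64). EFTUD2 replicates 1 and 2 thus lay within or just above the controls and replicate 3 far below them, and without replicate 3 the log2 fold change was 0.08. SRSF6, an enhancer-binding SR protein, measured 58.1, 58.5 and 55.1 FPKM across the controls, against 51.9, 52.3 and 19.1 FPKM across the EFTUD2 libraries. It had the lowest log2 fold change of the family (-0.60, standard error 0.37, limma adjusted p = 0.46), and the groups did not overlap. Without replicate 3 its log2 fold change was -0.13 (limma adjusted p = 0.42). SRSF4 took the opposite course in replicate 3, with 29.5, 30.2 and 29.6 FPKM across the controls, against 29.8, 32.1 and 40.1 FPKM across the EFTUD2 libraries (log2 fold change 0.17, standard error 0.13, limma adjusted p = 0.53). It was also the steadiest member among controls, with a coefficient of variation of 1.31%.

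Of the other SR proteins, most were lowest in EFTUD2 replicate 3. SRSF3, the smallest canonical SR protein and also active in mRNA export, was at 78.5 and 83.3 FPKM in EFTUD2 replicates 1 and 2, within the controls (79.2 to 96.9 FPKM) or just below them, and at 30.5 FPKM in replicate 3. SRSF7, its close relative with a zinc knuckle, was at 38.0 FPKM there against 68.0 to 102.9 FPKM in the other 5 libraries. The transformer-2 proteins bind GAA-rich enhancers, and both were low in replicate 3, TRA2A at 9.34 FPKM against 21.0 to 23.1 FPKM elsewhere and TRA2B at 29.2 FPKM against 58.7 to 70.4 FPKM. SRSF11, in contrast, was at 65.4 FPKM in replicate 3, within the range of the controls (61.5 to 80.7 FPKM). SRSF1, the founding SR protein, was moderately lower there, at 72.1 FPKM against 82.8 to 104.7 FPKM in the controls. SRSF5, SRSF9 and SRSF10 had log2 fold changes of -0.20, -0.19 and -0.15, and of -0.14, -0.02 and -0.11 without replicate 3. Over the 12 genes the median log2 fold change was -0.24 with all libraries, -0.12 after scaling by the median of ratios and -0.05 without replicate 3. Of the SR-related matrix proteins, which bridge splice sites without binding them as SR proteins do, SRRM1 measured 23.3, 24.0 and 21.5 FPKM across the controls, against 21.3, 23.1 and 29.97 FPKM across the EFTUD2 libraries. SRRM2, the scaffold of nuclear speckles, varied little, at 61.1, 64.3 and 63.4 FPKM and at 61.7, 64.7 and 55.5 FPKM.

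The SR protein kinases had 3 log2 fold changes above zero and 3 below, and none passed the test. CLK1, a nuclear dual-specificity kinase, measured 30.2, 14.9 and 19.1 FPKM across the controls, against 22.3, 19.9 and 44.3 FPKM across EFTUD2 replicates 1 to 3. It had the highest log2 fold change of the members (0.38, 95% interval -0.47 to 1.23, limma adjusted p = 0.60), the groups overlapped, and its control coefficient of variation of 36.8% was the highest of all 48. Without replicate 3 the log2 fold change was 0.03. CLK3 shared this course with 24.0, 16.9 and 19.3 FPKM in the controls and 18.4, 17.6 and 27.9 FPKM in the EFTUD2 libraries, and CLK4, the closest relative of CLK1, with 7.50, 5.25 and 5.23 FPKM and 4.92, 4.64 and 6.09 FPKM. In each group the same library was thus highest for these 3 kinases, control replicate 1 and EFTUD2 replicate 3. CLK2 differed from them. It measured 11.4, 10.4 and 11.2 FPKM across the controls, against 13.7, 13.9 and 8.41 FPKM across the EFTUD2 libraries, so that replicates 1 and 2 lay above and replicate 3 below every control. Its log2 fold change was 0.08 with all libraries and 0.30 without replicate 3 (standard error 0.09, limma adjusted p = 0.18).

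SRPK1 phosphorylates SR proteins in the cytoplasm, from where they are imported into the nucleus. It measured 52.8, 50.8 and 47.1 FPKM across the controls, against 44.4, 40.1 and 41.7 FPKM across EFTUD2 replicates 1 to 3, and every EFTUD2 library lay below every control. The log2 fold change was -0.25 (95% interval -0.48 to -0.02, limma adjusted p = 0.40, unadjusted p = 0.039). An exact two-sided permutation test of 3 against 3 libraries cannot give less than 0.1. The log2 fold change was -0.24 without replicate 3, and -0.13 after scaling by the median of ratios. SRPK2 showed no such order, with 13.5, 10.4 and 10.2 FPKM across the controls, against 10.95, 10.96 and 10.1 FPKM across the EFTUD2 libraries.

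HNRNPA1 had the highest level of all members. This hnRNP antagonizes SR proteins at many exons. It measured 666.3, 753.2 and 741.1 FPKM across the controls, against 773.0, 713.0 and 735.4 FPKM across the EFTUD2 libraries, and replicate 3 did not depart from the rest (log2 fold change 0.04, 95% interval -0.25 to 0.33, limma adjusted p = 0.88). GENCODE names 74 pseudogenes after this gene, 16 after HNRNPA3 and 9 after HNRNPC, so reads of near-identical copies may have been divided between them. HNRNPM, which promotes exon skipping and mesenchymal splicing in other cells, measured 125.0, 135.1 and 124.9 FPKM across the controls, against 104.1, 114.2 and 37.1 FPKM across EFTUD2 replicates 1 to 3. Its groups did not overlap, and the log2 fold change was -0.74 (standard error 0.40, limma adjusted p = 0.44). Without replicate 3 the value was -0.23 (standard error 0.09, limma adjusted p = 0.27), so that most of the difference lay in that library, though EFTUD2 replicates 1 and 2 were also below all controls. HNRNPH1, which binds runs of guanine, also had groups that did not overlap, at 137.1 to 150.6 FPKM and 101.1 to 135.8 FPKM (log2 fold change -0.24, and -0.10 without replicate 3).

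Of the 16 hnRNP genes, 14 had a log2 fold change below zero, and 14 had their lowest value in EFTUD2 replicate 3. HNRNPU, the nuclear scaffold factor, was at 38.3 FPKM there against 83.1 to 101.8 FPKM in the other libraries. HNRNPAB was at 38.5 FPKM against 68.9 to 100.8 FPKM, HNRNPR at 40.0 FPKM against 63.5 to 88.1 FPKM, and HNRNPD, which binds AU-rich elements, at 59.6 FPKM against 94.1 to 116.2 FPKM. HNRNPA2B1, a close relative of HNRNPA1, was at 138.1 FPKM against 214.8 to 249.4 FPKM. For HNRNPA1, HNRNPL and HNRNPF, by contrast, the value in replicate 3 was at least 0.92 times the mean of EFTUD2 replicates 1 and 2. For HNRNPC, HNRNPK, HNRNPA0, HNRNPA3, HNRNPH2 and HNRNPH3 this ratio lay between 0.67 (HNRNPA0) and 0.87 (HNRNPA3). Over the family the median log2 fold change was -0.22, and it was -0.01 without replicate 3, with 8 genes above zero and 8 below.

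PTBP1 and the poly(C)-binding proteins included a gene on either side of the controls. PTBP1 represses exons next to pyrimidine tracts and measured 164.8, 150.0 and 157.4 FPKM across the controls, against 136.4, 140.8 and 134.5 FPKM across the EFTUD2 libraries, without overlap (log2 fold change -0.20, 95% interval -0.42 to 0.03, limma adjusted p = 0.41). Its value in replicate 3 was 0.97 times the mean of the other two EFTUD2 libraries. PCBP2, which binds C-rich stretches and stabilizes mRNAs, was the only tested member above all controls in each EFTUD2 library, at 145.3, 164.2 and 165.8 FPKM and at 184.9, 181.1 and 199.3 FPKM. Its log2 fold change was 0.25 (95% interval -0.003 to 0.50, limma adjusted p = 0.40), 0.21 without replicate 3 and 0.37 after scaling by the median of ratios. PCBP1, its intronless relative, was at 276.4, 320.5 and 311.0 FPKM and at 297.6, 307.3 and 253.0 FPKM, and the groups overlapped.

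The FET and DBHS proteins included SFPQ, which had the lowest log2 fold change of the members with all libraries. SFPQ pairs with NONO in paraspeckles and takes part in splicing and transcription. SFPQ measured 100.7, 99.2 and 90.6 FPKM across the controls, against 76.7, 87.8 and 21.4 FPKM across EFTUD2 replicates 1 to 3 (log2 fold change -0.87, 95% interval -2.04 to 0.31, limma adjusted p = 0.45). Replicate 3 held 0.26 times the mean of replicates 1 and 2, the lowest such ratio of any member, and the log2 fold change without it was -0.23 (standard error 0.10, limma adjusted p = 0.31). Its partner NONO did not follow, at 119.6, 135.8 and 135.2 FPKM and at 131.6, 129.6 and 124.3 FPKM (log2 fold change -0.02, 95% interval -0.26 to 0.22). EWSR1 and TAF15, FET proteins that join transcription to splicing, were also below the controls in every EFTUD2 library. EWSR1 was at 84.6 to 100.2 FPKM in the controls and 79.3, 83.0 and 41.8 FPKM in the EFTUD2 libraries, and TAF15 at 24.2 to 26.6 FPKM and 20.7, 22.5 and 10.5 FPKM. Their log2 fold changes were -0.47 and -0.54 with all libraries and -0.15 and -0.21 without replicate 3.

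Among the regulators that differ between cell types, Hep G2 cells expressed ESRP2 and almost no ESRP1. Both favor epithelial exons. ESRP1 measured 0.04, 0.04 and 0.02 FPKM across the controls, against 0.09, 0.11 and 0.08 FPKM across the EFTUD2 libraries, below the level set for testing. ESRP2 measured 19.2, 21.3 and 22.3 FPKM across the controls, against 24.3, 25.7 and 13.2 FPKM across EFTUD2 replicates 1 to 3, above every control in replicates 1 and 2 and below every control in replicate 3 (log2 fold change -0.04, 95% interval -0.63 to 0.54). Without replicate 3 it was 0.25 (standard error 0.09, limma adjusted p = 0.27). MBNL1, which binds YGCY elements and favors differentiated splicing, measured 21.3, 18.95 and 18.2 FPKM across the controls, against 16, 15.3 and 17.3 FPKM across the EFTUD2 libraries, without overlap. Its log2 fold change was -0.25 (95% interval -0.51 to 0.01, limma adjusted p = 0.40) and -0.30 without replicate 3 (limma adjusted p = 0.21). MBNL2 went with CLK1, at 27.95, 16.4 and 19.2 FPKM and at 20.1, 17.2 and 46.0 FPKM, so that replicate 3 held 2.47 times the mean of the other two EFTUD2 libraries. Its log2 fold change turned from 0.27 to -0.15 without that library (limma adjusted p = 0.73 and 0.77). RBFOX2, which binds UGCAUG, was at 11.1, 11 and 10.5 FPKM and at 9.85, 8.16 and 12.3 FPKM.

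**Figure D3:**
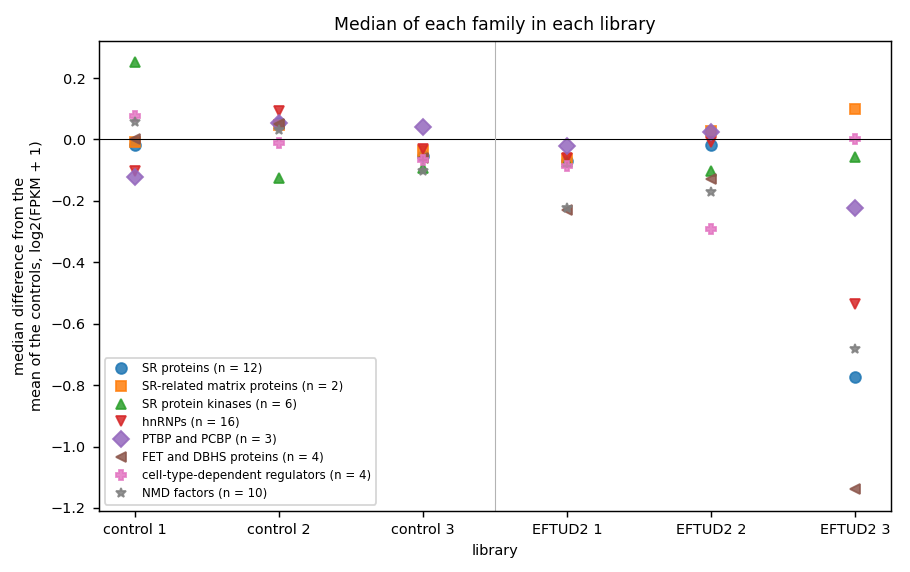
Median difference from the control mean (y axis, log2(FPKM + 1)) of each family of members and of the NMD factors, in each library (x axis). EFTUD2 replicates 1 and 2 stay near the controls, and in EFTUD2 replicate 3 the medians run from -1.14 for the FET and DBHS proteins and -0.77 for the SR proteins to 0.10 for the SR-related matrix proteins.

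Families differed in how far EFTUD2 replicate 3 departed. Its median difference from the control mean was -1.14 for the FET and DBHS proteins, -0.77 for the SR proteins and -0.54 for the hnRNPs, while it was -0.06 for the kinases and 0.10 for the SR-related matrix proteins. In EFTUD2 replicates 1 and 2 no family median lay outside -0.29 to 0.03. Control replicate 1 departed in part in the same way. Over the 47 tested members, the difference of EFTUD2 replicate 3 from the other two EFTUD2 libraries and that of control replicate 1 from the other two controls had a Pearson r of 0.56 and a Spearman rho of 0.48. Over all 17222 genes tested, r was 0.38 and rho 0.40. These are correlations across genes of the same libraries, and genes are not independent. CLK1, MBNL2, CLK3 and CLK4 were high in both libraries, and SRSF7, HNRNPAB and HNRNPR were low in both, whereas SFPQ, SRSF6 and HNRNPM were low in EFTUD2 replicate 3 and near the other controls in control replicate 1. EFTUD2 mRNA itself did not set replicate 3 apart, at 1.05 times the mean of replicates 1 and 2.

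**Figure D4:**
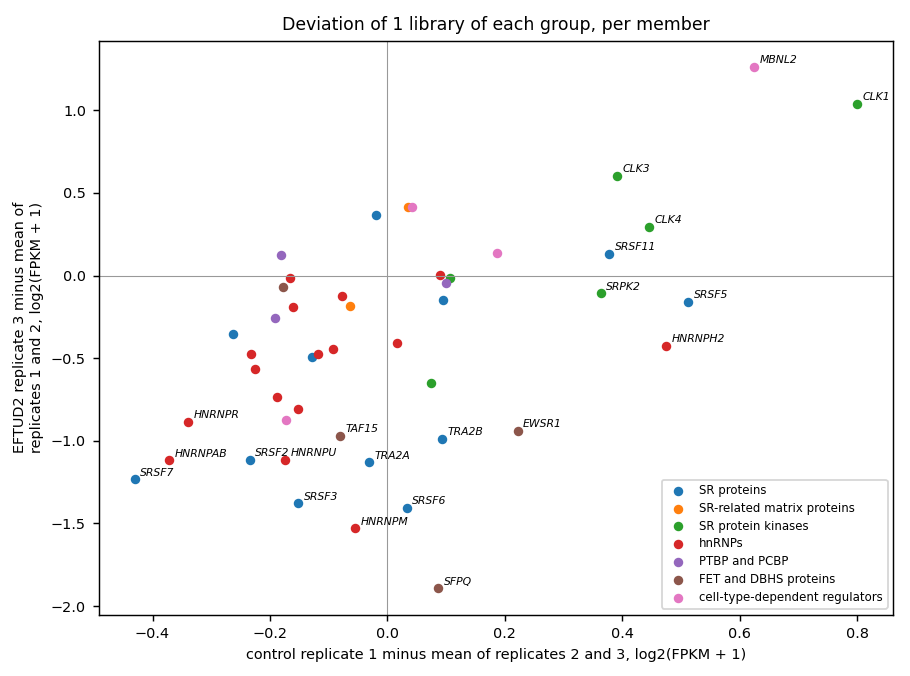
Difference of EFTUD2 replicate 3 from the mean of EFTUD2 replicates 1 and 2 (y axis) against that of control replicate 1 from the mean of control replicates 2 and 3 (x axis), both in log2(FPKM + 1), for the 47 tested members colored by family. CLK1 and MBNL2 sit at the upper right, and SFPQ, HNRNPM, SRSF6 and SRSF3 at the bottom near zero on the x axis.

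Promoters are shown for members with large differences between EFTUD2 replicate 3 and the mean of replicates 1 and 2. Among members with a promoter entry, HNRNPM, SRSF6, SRSF3 and SRSF7 had the largest falls, and CLK1 and MBNL2 the largest rises. HNRNPAB and HNRNPU, with smaller falls than these but larger differences than that of CLK1, are not shown. Each line gives the 120 bases before the RefSeq gene start, 5′ to 3′ on the strand of the gene. Capitals mark matches, on either strand, to the GC box (GGGCGG), the CCAAT box (CCAAT), the TATA box (TATAAA), the E-box (CACGTG), the cyclic AMP response element (TGACGTCA) or the ETS core (CCGGAAG). RefSeq promoters (GRCh38.p14) matched 40 of the 48 members, and SFPQ is among those without an entry.
HNRNPM, chr19:8444855-8444974, plus strand: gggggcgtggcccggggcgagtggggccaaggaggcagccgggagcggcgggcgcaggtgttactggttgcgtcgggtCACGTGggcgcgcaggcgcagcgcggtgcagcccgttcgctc
SRSF6, chr20:43457776-43457895, plus strand: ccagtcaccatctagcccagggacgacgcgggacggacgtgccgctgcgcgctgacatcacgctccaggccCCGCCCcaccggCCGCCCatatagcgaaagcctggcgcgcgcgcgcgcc
SRSF3, chr6:36594242-36594361, plus strand: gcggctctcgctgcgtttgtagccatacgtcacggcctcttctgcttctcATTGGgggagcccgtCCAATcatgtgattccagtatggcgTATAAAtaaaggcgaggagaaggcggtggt
SRSF7, chr2:38751495-38751614, minus strand: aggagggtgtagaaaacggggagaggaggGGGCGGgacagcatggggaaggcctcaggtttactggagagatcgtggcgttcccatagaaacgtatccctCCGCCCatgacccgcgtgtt
CLK1, chr2:200864659-200864778, minus strand: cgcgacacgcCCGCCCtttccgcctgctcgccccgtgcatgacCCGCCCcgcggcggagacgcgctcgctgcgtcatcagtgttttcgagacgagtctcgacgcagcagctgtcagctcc
MBNL2, chr13:97141714-97141833, plus strand: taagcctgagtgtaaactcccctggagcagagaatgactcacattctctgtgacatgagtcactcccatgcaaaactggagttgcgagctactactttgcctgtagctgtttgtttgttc

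The 6 promoters shared no single motif. GC boxes stood in SRSF6, SRSF7 and CLK1, which moved in opposite directions in EFTUD2 replicate 3, an E-box in HNRNPM, and CCAAT boxes on both strands with a TATA box in SRSF3. MBNL2 held none of the motifs searched, in the printed bases or in the 250 bases before its start. Over the 250 bases before the start, a GC box was found in 24 of the 40 member promoters (60%) and in 42.6% of all 35116 promoters, and a CCAAT box in 16 (40%) and 32%. An E-box was found in 7 (17.5%) and 6.34%, an ETS core in 6 (15%) and 8.52%, a TATA box in 5 (12.5%) and 10.7%, and a cyclic AMP response element in 0 and 1.65%. The member windows had a median of 65% G and C, against 58% over all promoters. The set of all promoters was not limited to genes expressed in these cells, nor reduced to a single promoter per gene as the members were. These matches describe the letters only.

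Other genes of the same pathway were taken from 2 lists. Of the list of other splicing regulators, 59 were in the table and 51 were tested, with 0 called by limma at an adjusted p under 0.05. Log2 fold changes were above zero for 6 and below for 45 (median -0.17), where 37.3% of all genes tested were above zero (median -0.075). After scaling by the median of ratios, 17 of the 51 were above zero (median -0.05), against 51.1% of all genes tested. Log2 fold changes in this list ran from -1.01 to 0.29. At an unadjusted p under 0.05, 0 of the 51 were higher (background 4.4%) and 8 of the 51 lower, a larger share than the background of 7.9%. Without EFTUD2 replicate 3 the median was -0.07, with 0 called. At that unadjusted threshold, 1 of the 51 was then higher (background 7.82%) and 10 of the 51 lower, again a larger share than the background of 8.87%. PSPC1, the third DBHS protein, followed SFPQ, with a mean of 37.2 ± 2.67 FPKM in the controls (SD, n = 3) and 30.3, 32.4 and 12.4 FPKM in the EFTUD2 libraries (log2 fold change -0.67, standard error 0.34, limma adjusted p = 0.43). Without replicate 3 its log2 fold change was -0.24. ACIN1, a factor that joins the exon junction complex, had a log2 fold change of -0.65 (standard error 0.29, limma adjusted p = 0.40), and -0.30 without replicate 3. The largest log2 fold changes above zero among genes averaging 1 FPKM or more were those of MBNL3 (0.24, standard error 0.14) and LUC7L3 (0.12, standard error 0.11). QKI, a regulator of differentiation-linked exons chosen after its values were seen, ranged from 31.1 to 31.8 FPKM across the controls, against 26.1, 23.0 and 24.2 FPKM across the EFTUD2 libraries. Its log2 fold change was -0.35 (standard error 0.10, limma adjusted p = 0.40), and EFTUD2 replicate 3 did not depart from replicates 1 and 2.

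NMD factors degrade transcripts with a poison exon. All 10 were tested and had log2 fold changes below zero (37.3% of all genes tested were above it), with a median of -0.38, and the groups did not overlap, the EFTUD2 libraries being lower, for 7 of them (background 19.4%). None passed the limma test at an adjusted p under 0.05, while 5 were lower at an unadjusted p under 0.05 (background 7.9%). Without EFTUD2 replicate 3 all 10 were again below zero (40.5% of all genes were above it), with a median of -0.20, and 4 were lower at an unadjusted p under 0.05 (background 8.87%). SMG1, the kinase that phosphorylates UPF1, measured 30.3, 27.7 and 25.7 FPKM across the controls, against 23.3, 21.3 and 20.3 FPKM across the EFTUD2 libraries (log2 fold change -0.35, standard error 0.11, limma adjusted p = 0.40). SMG8 and UPF3B had the lowest log2 fold changes, -0.62 and -0.50, which were -0.19 and -0.33 without replicate 3. SMG8 ranged from 11.6 to 15.6 FPKM across the controls, against 11.1, 11.8 and 4.08 FPKM across EFTUD2 replicates 1 to 3. UPF1, the central helicase, was at 28.0 to 30.7 FPKM in the controls and 28.7 to 29.5 FPKM in the EFTUD2 libraries. With the median of ratios, 1 of the 10 was above zero and the median was -0.27.

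Markers of other cell types moved in these libraries in another order than the members. The basal epithelial list (5 genes, 3 of them tested, 2 at 0 in all controls) summed to between 1.73 and 2.75 FPKM in the controls and to 91.9, 197.2 and 10.2 FPKM in EFTUD2 replicates 1 to 3. Nearly all of these EFTUD2 sums came from KRT17 (66.9, 135.1 and 9.29 FPKM) and KRT7 (24.7, 61.2 and 0.78 FPKM). KRT5 was at 0 in every library, and TP63 was at no more than 0.01 FPKM. The mesenchymal list (13 genes, 10 tested, 4 at 0 in all controls) summed to between 46.5 and 59.8 FPKM in the controls and to 79.8, 107.8 and 67.9 FPKM. VIM alone made up 23.2, 59.6 and 2.87 FPKM of these EFTUD2 sums, against 0.06 to 0.12 FPKM in the controls. ZEB2, SNAI2, TWIST1, LUM, COL1A1 and COL3A1 were also highest in EFTUD2 replicate 2, at low levels of up to 2.05 FPKM (COL1A1). CDH2, ZEB1, SPARC and PDGFRB, by contrast, each had their lowest EFTUD2 value in replicate 2. COL1A2 and THY1 were at no more than 0.01 FPKM in any library. Both sums were thus highest in EFTUD2 replicate 2, where the family median farthest from the controls was -0.29, that of the cell-type-dependent regulators. The endothelial list summed to no more than 1.60 FPKM in any library, and the macrophage list, of which lysozyme made up most, to between 775.5 and 2281 FPKM in the controls and between 885.3 and 1749 FPKM in the EFTUD2 libraries. The hepatocyte sum was highest in EFTUD2 replicate 3, at 17439 FPKM, and second highest in control replicate 1, at 14168 FPKM. CLK1 and MBNL2 were highest in these libraries. Of the 10 hepatocyte genes, 5 were highest in EFTUD2 replicate 3 and 1 was lowest there. The lowest was HNF4A, at 47.3 FPKM against 65.4 to 79.9 FPKM in the controls. FGB was also lower there, at 62.4 FPKM against 99.7 and 118.1 FPKM in EFTUD2 replicates 1 and 2. The part of any of these markers in the levels of the members was not tested.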

How the data were processed

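The authors sequenced poly-A RNA (BGISEQ-500) and deposited 1 table of FPKM values with 2 decimals. The submitters' processing notes name HISAT2, Bowtie2, RSEM, DESeq2 and the build hg38, and the annotation is not given in the sources used here. Columns were assigned to the 6 libraries by their labels. The depth is unknown, so no counting interval can be given. The test took log2(FPKM + 1), on which changes of low genes are understated, for the 17222 genes averaging 0.1 FPKM or more, with limma 3.58.1 (empirical Bayes with trend, R 4.3.3) and Benjamini-Hochberg adjustment over all of them. The code was tested on simulated data. Positions and promoters are from RefSeq (GRCh38.p14), pseudogene names from GENCODE, and all 48 members matched a RefSeq gene by Entrez number.

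The members and lists were chosen with earlier results of these data known. Values in every library are given for the largest rise, the largest fall and the highest level of each family and for all kinases and cell-type-dependent regulators, and other members by range or log2 fold change. The lists of other splicing regulators and NMD factors were to be named by their 2 largest rises and falls, and 1 such gene, the largest fall among the other splicing regulators, is not reported here. Alternatives were a pseudocount of 0.1 FPKM, no filter, a mean of at least 10 FPKM, 3 scalings, a block on the replicate number, array weights, a robust variance prior, and each library left out. The fit that combined a left-out library with the median of ratios was chosen after seeing the data.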

Additional observations from a re-analysis of the deposited data

How the results depend on the processing

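Over 16 alternatives, 0 members had an adjusted p under 0.05 in limma, and the smallest adjusted p of a member was 0.13. The number of all genes called was 0 except with array weights (1246), which gave control replicate 3 a weight of 27.7 and EFTUD2 replicate 1 one of 0.0348, without EFTUD2 replicate 3 (131), and without it after scaling by the median of ratios (169); leaving out each library gave 0 to 131. Members higher at an unadjusted p under 0.05 numbered 0, but 2 with no filter, 1 with the median of ratios, 1 with quantile normalization, 0 to 2 with a library left out and 3 without EFTUD2 replicate 3 after scaling. Lower members numbered 1, but 3 with no filter, 0 with the median of ratios or quantile normalization, 2 with a common FPKM sum, 3 with array weights and 0 to 3 with a library left out. The median of the members, -0.185, lay between -0.21 and -0.04 with a library left out and was 0.016 without EFTUD2 replicate 3 after scaling. EFTUD2 kept its direction, with log2 fold changes of 1.14 (array weights, limma adjusted p = 0.0069), 1.20 (without replicate 3, scaled, limma adjusted p = 0.029) and 1.07 to 1.26 with a library left out. Its limma adjusted p was under 0.05 only in the first 2 of these fits and without EFTUD2 replicate 3 alone (0.031). In the other alternatives it ran from 0.069 (quantile normalization) to 0.53 (without control replicate 3). The fit with a replicate block called 0 genes and 0 members; deviations of same-numbered libraries correlated at -0.30, 0.35 and -0.09, so the numbers were not taken to pair the libraries. The causes of these shifts were not tested.

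Log2 fold changes of members changed sign as follows. With the median of ratios they were SRRM2 0.067, SRPK2 0.039, HNRNPA3 0.061, HNRNPF 0.096, HNRNPK 0.023, HNRNPL 0.094, PCBP1 0.040, NONO 0.11 and ESRP2 0.072. With quantile normalization they were SRRM2 0.0031, SRPK2 0.051, HNRNPA1 -0.16, ESRP2 0.10 and RBFOX2 0.017, and with a common FPKM sum HNRNPA1 -0.0015 and HNRNPH3 -0.041. With array weights they were SRSF5 0.0073, SRSF7 0.022, SRRM2 0.0057, CLK3 -0.056, SRPK2 0.072, HNRNPA1 -0.046, HNRNPA2B1 0.017, HNRNPAB 0.066, HNRNPF 0.082, HNRNPH2 0.063, HNRNPK 0.015, HNRNPL 0.030, ESRP2 0.11 and MBNL2 -0.018. With a library left out the ranges were SRSF2 -0.51 to 0.080, SRSF7 -0.50 to 0.12, SRRM1 -0.043 to 0.19, SRRM2 -0.10 to 0.0051, CLK2 -0.033 to 0.30, CLK3 -0.13 to 0.20, SRPK2 -0.14 to 0.046, HNRNPA1 -0.014 to 0.075, HNRNPA2B1 -0.35 to 0.074, HNRNPA3 -0.12 to 0.0018, HNRNPAB -0.57 to 0.048, HNRNPF -0.069 to 0.040, HNRNPH3 -0.10 to 0.15, HNRNPK -0.18 to 0.058, HNRNPR -0.45 to 0.0063, PCBP1 -0.15 to 0.0017, NONO -0.077 to 0.014, ESRP2 -0.21 to 0.25, RBFOX2 -0.25 to 0.015 and MBNL2 -0.15 to 0.54. Without EFTUD2 replicate 3 and with the median of ratios, 26 members were above zero and 21 below, and SRSF1 (0.04), SRSF9 (0.04), TRA2A (0.04), HNRNPC (0.01) and HNRNPD (0.02) changed sign in that fit alone. Among fits that left out 1 library, only leaving out EFTUD2 replicate 3 turned the sign of SRSF2, SRSF7, SRRM1, SRRM2, HNRNPA2B1, HNRNPA3, HNRNPAB, HNRNPK, HNRNPR, PCBP1, ESRP2 and MBNL2, and other libraries, alone or besides it, turned that of CLK2 (EFTUD2 replicate 1 or EFTUD2 replicate 2), CLK3 (control replicate 2 or EFTUD2 replicate 3), SRPK2 (control replicate 1), HNRNPA1 (control replicate 1), HNRNPF (control replicate 2 or EFTUD2 replicate 3), HNRNPH3 (control replicate 1 or control replicate 3 or EFTUD2 replicate 1 or EFTUD2 replicate 2), NONO (control replicate 2 or control replicate 3 or EFTUD2 replicate 3) and RBFOX2 (EFTUD2 replicate 2).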
